A study of Gallus gallus with 20 samples.

Results

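The genes for the lens beaded filament and its cytoskeletal partners were examined in chromatin of the embryonic day 4.5 chicken lens. They were chosen by name, as BFSP1, BFSP2, VIM and TUBA1A, and located in the RefSeq gene table of genome build GRCg7b. All 4 were found among the 17839 protein-coding genes that the table places on chromosomes. The assay was CUT&RUN, a method that tethers a nuclease to an antibody and so cuts out the DNA that its target occupies. The labels give no genotype, strain or agent. Every library came from dissected whole lenses of the same stage, pooled at about 44 lenses per pool and used at 100000 nuclei per reaction. The groups differ in the antibody, with 3 libraries each for histone H3 trimethylated at lysine 4 (H3K4me3, antibody diluted 1 in 50) or at lysine 27 (H3K27me3, 1 in 50), EZH2 (1 in 100), SUZ12 (1 in 100), JARID2 (1 in 50) and AEBP2 (1 in 25), and 2 libraries for non-specific IgG (1 in 50). Each antibody other than IgG is represented by 1 deposited peak list, so that no values per library were used here and no difference between lists was tested. A dissected lens holds both epithelium and fiber cells, and a peak from some of its cells cannot be told apart from a weaker one in all of them.

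BFSP1 encodes filensin and BFSP2 encodes phakinin, a pair of divergent intermediate filament proteins that assemble into the beaded filaments of lens fiber cells. VIM encodes vimentin, the classical intermediate filament protein of lens epithelium and of young fiber cells, and TUBA1A an alpha-tubulin of the microtubules that run along elongating fibers. H3K4me3 is laid down around the start sites of active and poised genes. H3K27me3 is the product of Polycomb repressive complex 2 (PRC2) and marks silenced genes, EZH2 being its catalytic subunit, SUZ12 a core scaffold, and JARID2 and AEBP2 accessory subunits.

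H3K4me3 and SUZ12 peaks lay at the ends of all 4 genes, and H3K27me3, EZH2 and JARID2 peaks at the ends of none. A peak counted as lying at an end when it overlapped the 1 kb on either side of either gene end. By this rule H3K4me3 was present at 4 of 4 genes, where 57.2% of all protein-coding genes had it, and SUZ12 at 4 of 4, where 64.5% had it. H3K27me3 was found at 0 of 4 genes (26% of all), EZH2 at 0 of 4 (59.3% of all) and JARID2 at 0 of 4 (43.2% of all). AEBP2 was present at 1 of 4, BFSP2, against 37.1% of all genes. Each gene therefore had H3K4me3 alone of the histone marks, a state it shared with 45.3% of protein-coding genes. The gene table gives no strand, and the ends are called lower and upper by their coordinates. Within the bodies and 10 kb around them lay 43 peaks in all, 11 at BFSP1, 9 at BFSP2, 2 at VIM and 21 at TUBA1A.

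**Figure D1:**
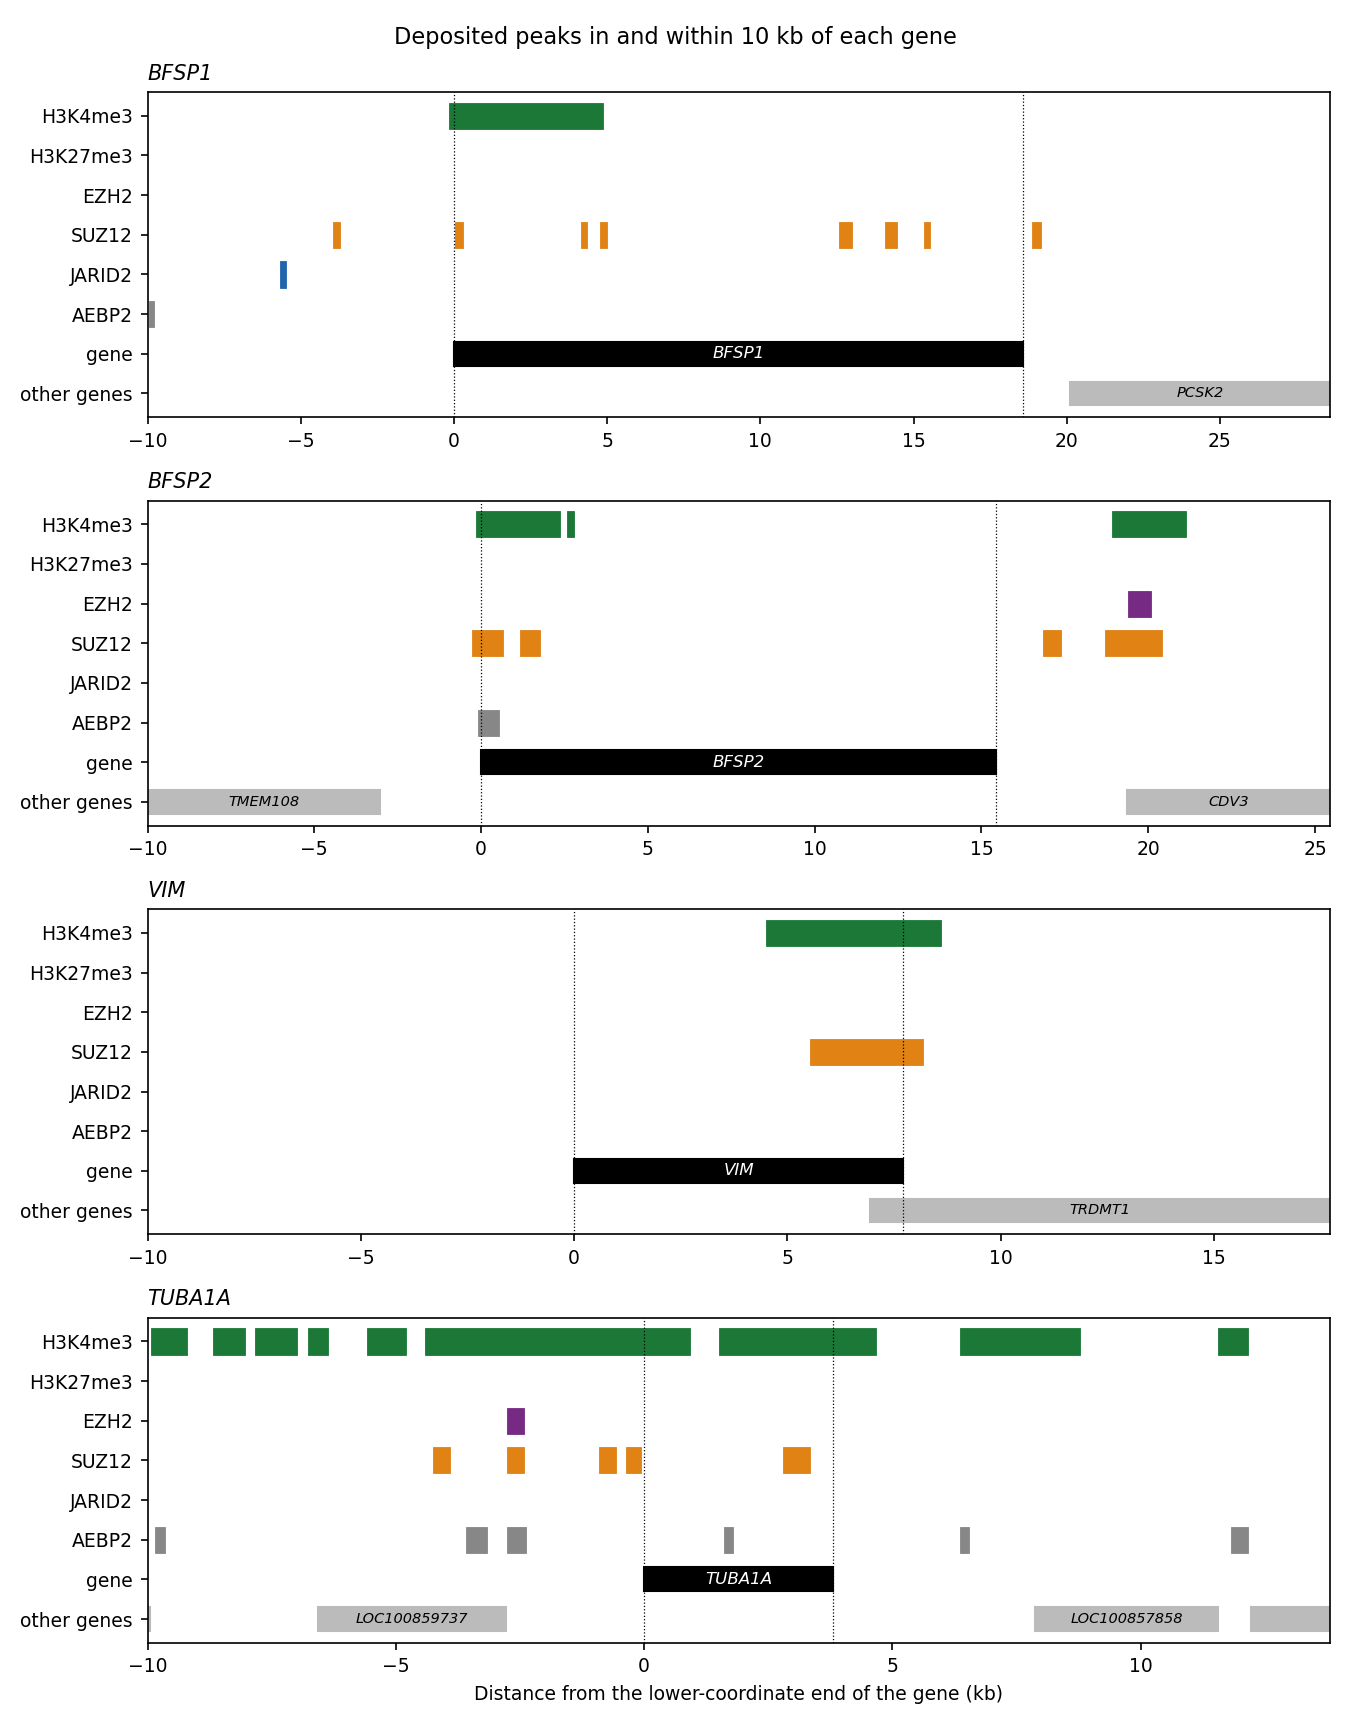
Deposited peaks of the 6 lists (rows, coloured boxes to scale) in each gene and the 10 kb on both sides, against distance in kb from the lower-coordinate end; black bars are the genes, grey bars other protein-coding genes (the unlabelled ones are LMBR1L and LOC107055405, both beside TUBA1A), and dotted lines the gene ends. H3K4me3 lay at the lower end of BFSP1 and BFSP2, at the upper end of VIM and at both ends of TUBA1A, and no H3K27me3 peak lay in any of the 4 windows.

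BFSP1 spans 18584 bp on chromosome 3, from 11662050 to 11680633. Its single H3K4me3 peak ran from 11661880 to 11666922, a width of 5043 bp, and so covered the lower end and 26.2% of the gene body. It was the 50th widest of the 11079 peaks in the H3K4me3 list. The fold of this peak over the peak caller's background, as deposited by the authors, was 16.6, and its −log10 q was 532. The summit lay 257 bp inside the gene. BFSP1 thus combined a very wide peak with a fold at percentile 69.6 of the list.

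SUZ12 was the other abundant list at BFSP1, with 8 peaks of 200 to 410 bp and folds of 2.16 to 4.63. The peak nearest to the H3K4me3 summit, with a fold of 3.49 and the highest −log10 q of the 8 at 17.7, had its summit 94 bp from it. A further 2 lay near the inner border of the H3K4me3 peak, 4149 to 4355 bp and 4771 to 4982 bp from the lower end, at folds of 4.63 and 2.97. The remaining 5 peaks were outside H3K4me3, of which 3 lay in the far part of the body, 1 in the lower flank, and 1, with a fold of 4.53, was 294 bp beyond the upper end. That last peak also reached the end window of PCSK2, a prohormone convertase gene whose lower end lies 1521 bp above BFSP1. Of the histone marks PCSK2 had H3K27me3 alone, with a fold of 12.3, beside EZH2 at 15.9, JARID2 at 6.93 and AEBP2 at 2.69. These lie at its far end, since none of those lists had a peak within 10 kb above BFSP1. BFSP1 itself had no EZH2 or AEBP2 peak in the body. The single JARID2 peak within 10 kb was 5471 bp below BFSP1 at a fold of 2.94, and the single AEBP2 peak 9776 bp below it at 4.15.

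BFSP2 spans 15442 bp on chromosome 2, from 42525420 to 42540861. Its H3K4me3 peak at the lower end ran from 42525256 to 42527783, 2528 bp, with a fold of 35.7 and a −log10 q of 697. A second, small H3K4me3 peak of 217 bp followed inside the body with a fold of 2.13, and together they covered 16.7% of the gene. Compared with BFSP1, the peak at BFSP2 was narrower and its fold higher.

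BFSP2 was also the gene, of the 4, with overlapping SUZ12 and AEBP2 peaks at an end. The SUZ12 peak at the lower end was 907 bp wide with a fold of 8.48, at percentile 97.9 of the SUZ12 list, and the AEBP2 peak was 641 bp wide with a fold of 4.89, at percentile 77.9 of the AEBP2 list. The 3 summits lay close together inside the gene, at 132 bp for SUZ12, 159 bp for H3K4me3 and 187 bp for AEBP2 from the lower end. A second SUZ12 peak in the body had a fold of 2.80. No EZH2 or JARID2 peak accompanied them, although AEBP2 and SUZ12 are partners of EZH2 in PRC2. The EZH2 peak within 10 kb, with a fold of 1.91, lay at the end of CDV3, the next gene, together with an H3K4me3 peak of 53.2 and a SUZ12 peak of 6.29.

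VIM spans 7713 bp on chromosome 2, from 19703300 to 19711012. H3K4me3 and SUZ12 contributed 1 peak each and no other list had any within 10 kb. The H3K4me3 peak ran from 19707807 to 19711910, 4104 bp, with a fold of 22.0 and a −log10 q of 1767, and covered 41.6% of the gene body. The SUZ12 peak ran from 19708831 to 19711478 within it. Its width of 2648 bp made it the tenth widest of the 54487 SUZ12 peaks, while its fold of 2.57 was at percentile 11.4. All 10 of the widest SUZ12 peaks, 2648 to 4180 bp, overlapped H3K4me3, where 19.8% of the whole list did. The VIM peak is itself the narrowest of these 10. A wide peak also meets another by 1 bp more readily, so the 2 shares are not like for like. Both summits at VIM fell on the same base, 136 bp inside the upper end.

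The upper end of VIM overlaps TRDMT1, an RNA methyltransferase gene, by 779 bp. Both summits lay in that overlap, and the same pair of peaks counted for both genes. The lower end of VIM, which overlaps a non-coding gene by 481 bp, had no peak of any list. How much of the signal belongs to VIM and how much to TRDMT1 cannot be told apart from the peak lists.

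TUBA1A spans 3809 bp on chromosome 34, from 1313736 to 1317544, and was the gene most covered by H3K4me3. A peak from 1309318 to 1314661, 5344 bp wide with a fold of 20.9, crossed its lower end, and a peak from 1315251 to 1318407, 3157 bp wide with a fold of 65.2, crossed its upper end. Between them they covered 84.5% of the body. The upper peak had a −log10 q of 3820, at percentile 99.3 of the list, and its summit lay 728 bp inside the upper end. The lower peak, with a −log10 q of 481, had its summit 4064 bp below the gene, in the neighbouring LOC100859737.

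SUZ12 at TUBA1A had 5 peaks, each of them inside one of these 2 H3K4me3 peaks. Near the upper H3K4me3 summit, 98 bp from it, lay a SUZ12 summit with a fold of 2.53. The 2 SUZ12 peaks just below the lower end had folds of 2.48 and 2.26 and −log10 q values of 2.62 and 1.92, and the highest of the 5, 6.84, was 3910 bp below the gene near the summit of the lower H3K4me3 peak. AEBP2 had 6 peaks with folds of 1.78 to 4.60, of which 1 lay in the body at 2.16. The only EZH2 peak, with a fold of 3.73, was 2415 bp below the gene and coincided with SUZ12 and AEBP2 peaks beside LOC100859737. It lay inside the lower H3K4me3 peak, the one that crosses the lower end of TUBA1A.

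The surroundings of TUBA1A were dense in H3K4me3. Chromosome 34 is a small chromosome with 50.1 H3K4me3 peaks per Mb, against 6.20 on chromosome 2 and 7.42 on chromosome 3, though the share of its genes with H3K4me3 at an end was 49.6%, against 56% and 61.8%. Within 10 kb of TUBA1A there were 9 H3K4me3 peaks, against 1 at BFSP1, 3 at BFSP2 and 1 at VIM. The other 7 had folds of 3.02 to 6.34, below both peaks that touched the gene. The neighbours LOC100859737, LOC100857858 and LOC107055405 each had H3K4me3 alone, with highest folds of 20.9, 4.29 and 3.02. Alpha-tubulin genes are similar in sequence, and the treatment of reads that match several copies is not stated in the labels, so the peaks at TUBA1A are uncertain in this respect.

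H3K4me3 peaks at the 4 genes were wide for their list, and at BFSP1, VIM and BFSP2 their percentile by width exceeded that by fold. The widest peak at an end measured 5344 bp at TUBA1A, 5043 bp at BFSP1, 4104 bp at VIM and 2528 bp at BFSP2. Among the 10209 genes with H3K4me3 at an end the median of this width was 1244 bp, and the 4 genes lay at percentiles 99.6, 99.5, 98.7 and 91.9 in the same order. By the highest fold the order was TUBA1A with 65.2, BFSP2 with 35.7, VIM with 22.0 and BFSP1 with 16.6, at percentiles 96.7, 86.1, 70.1 and 58.6, and the median of genes with H3K4me3 was 13.7. For TUBA1A these values come from different peaks. Its widest peak is the lower one, which has its summit in LOC100859737, and its highest fold is that of the upper one, which has its summit in TUBA1A and was 3157 bp wide. Among the 8557 H3K4me3 peaks at gene ends this upper peak lay at percentile 96.8 by width and 97.3 by fold, and by its width TUBA1A would come after BFSP1 and VIM. For VIM, width and fold are those of the peak that counts for TRDMT1 as well. By −log10 q, which grows with the read count as well as the fold, the order was TUBA1A, VIM, BFSP2 and BFSP1. With 1 list there is no spread between libraries, so whether neighbours in any of these orders differ beyond error was not tested.

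**Figure D2:**
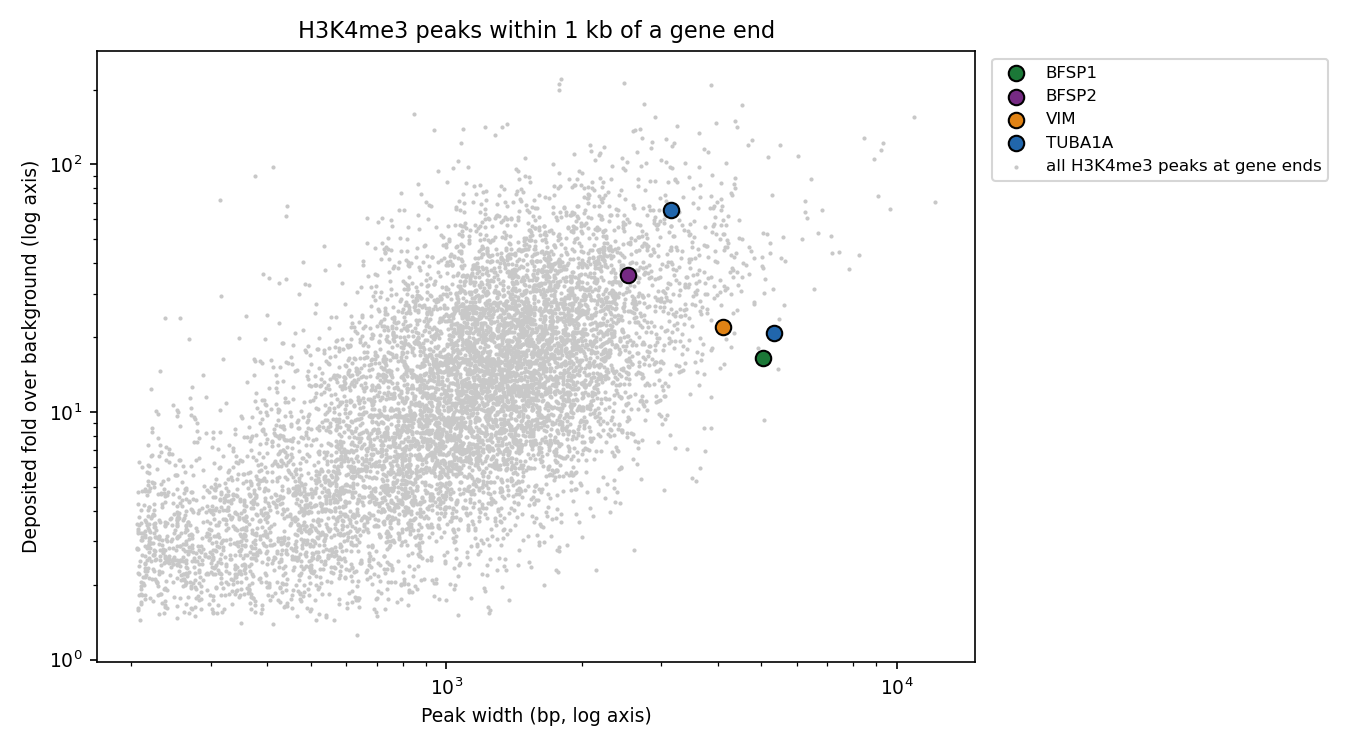
Width in bp (x, log axis) and deposited fold over background (y, log axis) of the 8557 H3K4me3 peaks within 1 kb of an end of a protein-coding gene; grey points are all of them and large points the 5 peaks at BFSP1, BFSP2, VIM and TUBA1A (2 peaks). The 5 peaks lie to the right, from 2528 to 5344 bp, where the median width was 1121 bp, and their folds run from 16.6 to 65.2.

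Coverage of the gene body gave a related picture. H3K4me3 covered 4873 bp of BFSP1, 2581 bp of BFSP2, 3206 bp of VIM and 3220 bp of TUBA1A, where the median gene with H3K4me3 at an end had 842 bp. As a share of the body this was 26.2%, 16.7%, 41.6% and 84.5% in the same order, against a median of 4.97%. The shares depend on gene length, and TUBA1A and VIM are short genes, below the median length of 12080 bp, while BFSP1 and BFSP2 are longer than it.

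SUZ12 peaks at these genes met H3K4me3 in part. Of the 18 SUZ12 peaks in the bodies and within 10 kb, 12 overlapped H3K4me3 by at least 1 bp, of which 9 lay wholly inside it, and 0 overlapped H3K27me3. The overlapping peaks were 3 of 8 at BFSP1, 3 of 4 at BFSP2, 1 of 1 at VIM and 5 of 5 at TUBA1A. Over the whole SUZ12 list the share in H3K4me3 was 19.8%. That share takes in peaks anywhere on the chromosomes, whereas the 18 lie around genes that all have wide H3K4me3 peaks. The shares are therefore not like for like, and a matched share was not computed. The distance from the H3K4me3 summit to the nearest SUZ12 summit was 94 bp at BFSP1, 27 bp at BFSP2, 0 bp at VIM and 98 bp at TUBA1A. Over the 7064 H3K4me3 peaks at gene ends that overlap SUZ12, the median of this distance was 111 bp, and the 25th and 75th percentiles were 46 and 281 bp. The highest SUZ12 fold at an end was 8.48 at BFSP2, 4.53 at BFSP1, 2.57 at VIM and 2.53 at TUBA1A, and the median of all genes with SUZ12 was 4.27. BFSP2 thus lay at percentile 93.2 of those genes, BFSP1 at 55.3, VIM at 12.9 and TUBA1A at 12.1. The value of BFSP1 comes from the peak beyond its upper end, outside H3K4me3. Its SUZ12 peak at the end with H3K4me3 had a fold of 3.49, below that median.

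The lack of EZH2 and JARID2 was set beside other genes with H3K4me3 alone, of which there were 8077. EZH2 was at an end in 75.7% of them, SUZ12 in 89.7%, JARID2 in 43% and AEBP2 in 39.2%, and 17.2% had neither EZH2 nor JARID2. Among the 3690 whose H3K4me3 fold was at least that of BFSP1, the lowest of the 4, 76.6% had EZH2 at an end. Neither EZH2 nor JARID2 was at an end in 15.5% of them. Among the 721 whose widest H3K4me3 peak was at least that of BFSP2, the narrowest of the 4, 71.8% had EZH2 and 18.2% had neither. The combination at BFSP1, VIM and TUBA1A, H3K4me3 with SUZ12 and no other list, occurred at 777 genes (4.36% of all), and that of BFSP2, with AEBP2 added, at 247 (1.38%). Of 12 lens marker genes, all with H3K4me3 alone, 5 had EZH2 at an end and 6 had JARID2. A lack of EZH2 was thus not particular to the 4 genes. Presence of EZH2 at an end of strongly marked genes was therefore common but not general, and the 4 genes belonged to the minority without it there. For TUBA1A this depended on the window. An EZH2 peak lay inside its lower H3K4me3 peak, 2415 bp from the gene. The genes were chosen by name with these data already known, so the count of 4 is a description.

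Distances to the nearest peak separated the genes further. The nearest H3K27me3 peak was 95.7 kb from BFSP1, 100.3 kb from BFSP2, 59.5 kb from VIM and 16.0 kb from TUBA1A, where the median over all genes was 15.6 kb. For the first 3 genes, 20.7%, 20.0% and 29.2% of genes were at least as far away, and for TUBA1A 49.7%. The peak nearest to TUBA1A reached the end window of LMBR1L, which carried both marks with an H3K27me3 fold of 36.6 and an EZH2 fold of 33.5. The nearest EZH2 peak was 23.4 kb from BFSP1, 13.8 kb from VIM, 3.96 kb from BFSP2 and 2.42 kb from TUBA1A. JARID2 was 19.9 kb from VIM, 16.4 kb from TUBA1A, 11.7 kb from BFSP2 and 5.47 kb from BFSP1. For EZH2, 15.1% of genes were at least as far away as BFSP1, 19.5% as VIM, 28.0% as BFSP2 and 30.1% as TUBA1A. For JARID2 the shares were 12.2% for VIM, 14.1% for TUBA1A, 17.5% for BFSP2 and 25.5% for BFSP1. The median of all genes was 0 for both lists because most genes hold such a peak in the body. Any gene without one there exceeds it.

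**Figure D3:**
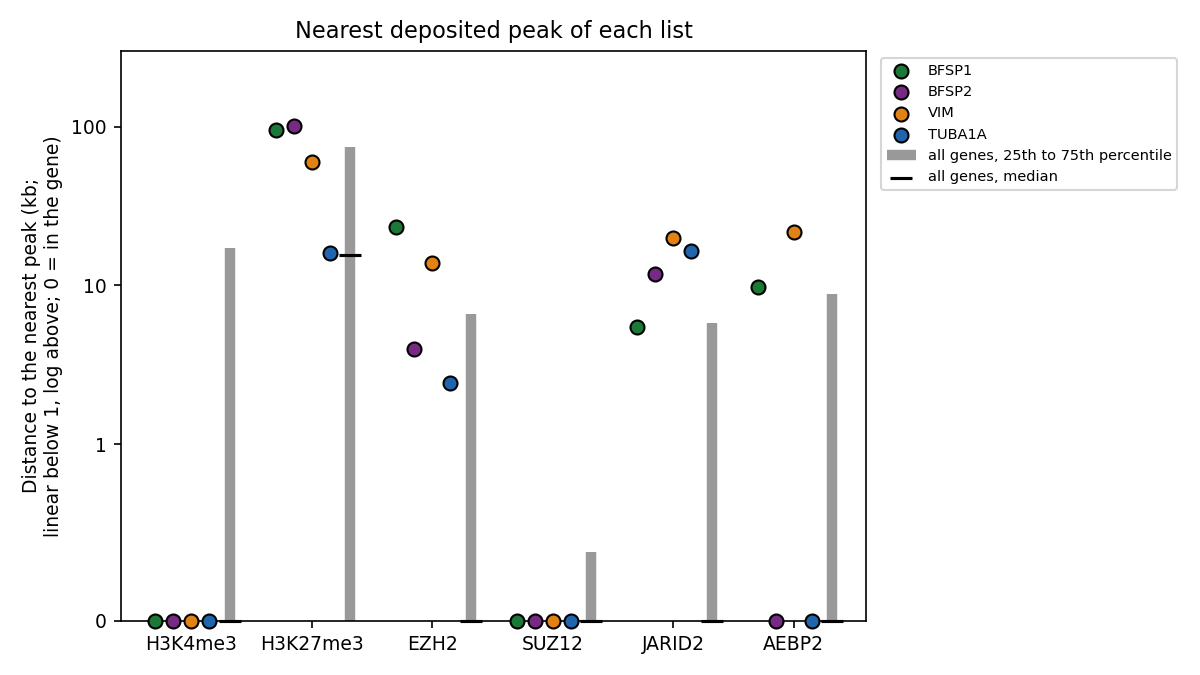
Distance in kb (y, linear below 1 kb and log above it, 0 meaning a peak in the gene) from BFSP1, BFSP2, VIM and TUBA1A (coloured points) to the nearest peak of each of the 6 lists, with the 25th to 75th percentile (grey bars) and the median (black dashes) of all protein-coding genes on chromosomes that hold a peak of the list. The 4 genes are at 0 for H3K4me3 and SUZ12, and between 2.42 and 100.3 kb away from H3K27me3, EZH2 and JARID2.

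With wider limits, TUBA1A gained EZH2 and AEBP2, BFSP1 gained JARID2 and AEBP2, BFSP2 gained EZH2, and VIM gained no list. A peak in the gene body was present at 4 of 4 genes for H3K4me3 (58.8% of all genes), 4 of 4 for SUZ12 (71.7%), 2 of 4 for AEBP2 (52.5%), and 0 of 4 each for H3K27me3 (27.5%), EZH2 (61.4%) and JARID2 (57.6%). In the body or within 10 kb there was H3K4me3 at 4 of 4 (70.4%), SUZ12 at 4 of 4 (86.3%), AEBP2 at 3 of 4 (76.2%), EZH2 at 2 of 4 (77.5%), JARID2 at 1 of 4 (80.5%) and H3K27me3 at 0 of 4 (43.9%). The EZH2 peaks that entered lay beside other genes, CDV3 and LOC100859737.

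Other intermediate filament genes were less uniform. Of 23 names, 19 matched the table, and 6 of these had H3K4me3 alone, 3 both marks, 6 H3K27me3 alone and 4 neither. Over all protein-coding genes these shares were 45.3%, 12%, 14% and 28.7%. H3K4me3 alone was found at the nuclear lamin genes LMNA, with a fold of 67.8, LMNB1 with 28.7 and LMNB2 with 21.4, at SYNM, which encodes synemin, with 65.6, at NES, which encodes nestin of progenitor cells, with 46.7, and at the simple epithelial keratin gene KRT18 with 6.03. SYNM had a widest H3K4me3 peak of 4059 bp, close to the 4104 bp of VIM, and NES of 2723 bp. The neuronal filament genes carried H3K27me3, with folds of 20.0 at NEFH, 18.2 at INA, 17.1 at NEFM and 15.4 at NEFL, the last with both marks. DES, the muscle desmin gene, and PRPH, which encodes peripherin, had both marks, at H3K27me3 folds of 2.62 and 6.21. SYNC, KRT7 and KRT17 had H3K27me3 alone at 5.05, 3.57 and 2.77. GFAP, an astrocyte filament gene, and the keratin genes KRT5, KRT8 and KRT14 had neither mark.

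Tubulin genes other than TUBA1A mostly had H3K4me3 or no mark. Of 21 names 14 matched, with 8 having H3K4me3 alone, 2 both marks, 0 H3K27me3 alone and 4 neither. The shares of all genes were 45.3%, 12%, 14% and 28.7% in the same order. TUBA5 had the highest H3K4me3 fold of those with it alone, 40.5, followed by TUBB4B with 29.6, the gamma-tubulin gene TUBG1 of microtubule nucleation with 23.5, TUBB1 with 18.4 and TUBD1 with 18.3. TUBB3, a beta-tubulin gene known from neurons, had both marks, with an H3K4me3 fold of 58.5 and an H3K27me3 fold of 5.34, and TUBB6 both at 7.73 and 1.71. TUBA3E, TUBA8A, TUBA8B and TUBAL3 had no peak of any list at an end. Thus none of the matched tubulin genes reached the 65.2 of TUBA1A. EZH2 was at an end of 9 of the 14, where 59.3% of all genes had it. The EZH2 peak nearest to TUBA1A lay 2415 bp from the gene, outside the end windows but inside the H3K4me3 peak that crosses its lower end.

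Actin, membrane skeleton and linker genes had H3K4me3 in 14 of 16 matched cases, 10 of them alone, 4 with both marks. Over all protein-coding genes 57.2% had H3K4me3, 45.3% had it alone and 12% had both marks. The spectrin genes SPTAN1 and SPTBN1, whose products line the fiber membrane, had H3K4me3 alone at folds of 12.8 and 10.2, and the actin genes ACTG1 and ACTB at 41.5 and 13.3. MSN and RDX, which encode the actin-membrane linkers moesin and radixin, had it alone at 25.3 and 17.5, and ADD1, which encodes the membrane skeleton protein adducin, at 11.3. Both marks lay at PPL, which encodes periplakin, at DSP, the desmoplakin gene, at ANK2, an ankyrin gene, and at EZR, the ezrin gene, with H3K27me3 folds of 12.7, 12.4, 19.0 and 1.67. TMOD1, which encodes the actin-capping protein tropomodulin, had H3K27me3 alone at 6.45, with EZH2 at 14.5 and SUZ12 at 12.4. TPM3 had neither mark. Of the microtubule-associated genes, all 13 names matched, and 9 had H3K4me3 alone (45.3% of all genes), led by MAP4 with 66.4 and STMN1 with 21.6. MAP2, a dendrite protein gene, and MAP1B had both marks, with H3K27me3 folds of 53.1 and 4.85, STMN2 had H3K27me3 alone at 39.7, and DCX had neither.

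Over these 62 genes EZH2 was at an end in 42 (67.7%, against 59.3% of all genes), SUZ12 in 48 (77.4%, against 64.5%), JARID2 in 32 (51.6%, against 43.2%) and AEBP2 in 20 (32.3%, against 37.1%). The median H3K4me3 fold of genes with the mark was 21.4 for intermediate filament genes, 18.3 for tubulin genes, 10.7 for actin and linker genes and 11.0 for microtubule-associated genes, beside 28.9 for the 4 genes and 13.7 for all genes. The median width of the widest peak was 874, 1591, 1657 and 1226 bp in the same order. Among the 12 lens marker genes this median was 2564.5 bp, with a range of 726 to 12168 bp. Wide H3K4me3 peaks were thus not particular to the 4 genes.

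**Figure D4:**
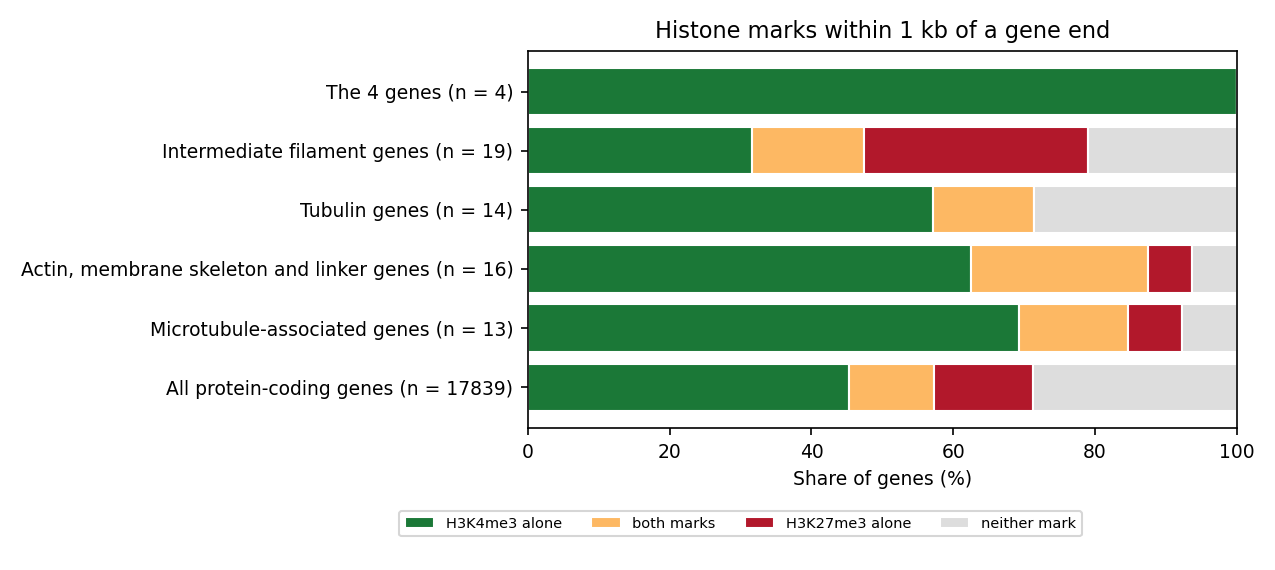
Share of genes in % (x) with H3K4me3 alone (green), both marks (orange), H3K27me3 alone (red) or neither mark (grey) within 1 kb of a gene end, for BFSP1, BFSP2, VIM and TUBA1A together, for 4 lists of cytoskeleton genes and for all 17839 protein-coding genes. The 4 genes had H3K4me3 alone, and H3K27me3 alone was most frequent in the list of intermediate filament genes, at 6 of 19.

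Genes with the most similar peaks were sought among those with the same lists at their ends, by the Euclidean distance of the log2 highest fold over the 6 lists. For BFSP1 these were MTOR, DTX2 and GPATCH11 out of 729 candidates, with distances of 0.03, 0.10 and 0.12, and MTOR had an H3K4me3 fold of 16.3 and a SUZ12 fold of 4.46. For VIM they were EIF2B1, JOSD1 and TEF out of 728, at 0.09, 0.10 and 0.11. For TUBA1A they were PSMB5, TRMT10C and FGF7 out of 727, at 0.23, 0.30 and 0.30. For BFSP2 they were ZC3H3, HES1 and CCDC97 out of 229, at 0.63, 0.70 and 0.71. Each had a higher H3K4me3 fold and a lower AEBP2 fold than BFSP2. The distances for BFSP2 take in AEBP2 folds as well and come from fewer candidates. They are therefore not comparable with those of the other 3 genes. Lists without a peak add nothing to a distance. For BFSP1, VIM and TUBA1A it therefore rests on H3K4me3 and SUZ12 folds alone, and the names describe no more than that. For BFSP1 the SUZ12 fold used, 4.53, was that of the peak beyond its upper end, outside H3K4me3.

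The tissue label was set beside marker genes at their ends. All 12 lens markers, crystallin and membrane protein genes and lens transcription factors, had H3K4me3 without H3K27me3, against 45.3% of all genes. H3K4me3, which 57.2% of all genes had, was found at 3 of 5 retina markers and 2 of 5 mesenchyme markers. It was also at 1 of 6 endothelial, 1 of 4 matched blood and 1 of 5 neuron markers. In each of these non-lens cases H3K27me3 was present as well, a state of 12% of all genes. The H3K4me3 folds of these cases ran from 2.17 to 9.89. Those of the lens markers ran from 2.04 to 70.2, with a median of 15.7, so the ranges overlap. Endothelial markers had neither mark in 4 of 6 cases, blood markers in 2 of 4 and neuron markers in 2 of 5. The retina count was 1 of 5 and the mesenchyme count 0 of 5, where 28.7% of all genes had neither. Vimentin is also made by mesenchyme and endothelium, and the part of such cells in its peaks was not tested.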

How the data were processed

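CUT&RUN peak lists of 6 antibodies were used, 1 list for 3 libraries each. Per the submitters' processing notes, the tools were MACS2 2.2.7.1, Bowtie2 2.4.1 and Trim Galore 0.6.4, with the build GRCg7b. Whether libraries were pooled for peak calling, and whether IgG was the control, is not stated there. The deposited fold is each peak's ratio to the background that the peak caller estimated, and the deposited −log10 q is adjusted within its list. The deposited −log10 p and score entered no result, and the deposited summit offset gave the summits. Folds belong to their own list and were compared only within it. Read depth is unknown, IgG signal was not used, and lists differ in length (11079 to 168110 peaks on chromosomes), so absence from a list is no measured level.

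Gene positions were those of the GRCg7b RefSeq table, which was used without strand, exons or sequence. Calls for all genes, at an overlap of at least 1 bp, were made in Python 3.11.15 with numpy 2.4.6 and pandas 2.3.3. On simulated peaks with a fixed seed, the calls differed from a direct search with the same windows at 0 of 3040 genes. This checks the overlap code only, not the accuracy of the peaks. No test was made: the members are 4 genes and each antibody has 1 list. Members and gene lists were chosen with earlier results of these data known. Named genes are the 4 genes, protein-coding genes within 10 kb, the 3 most similar genes each (over 100 kb away, with a symbol), and, from each cytoskeleton list, up to 8 genes in each state, highest folds first. The count of the 10 widest SUZ12 peaks was added after the data were seen.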

Additional observations from a re-analysis of the deposited data

How the results depend on the processing

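Of 42 counts of the 4 genes under 7 alternatives, 33 stayed within 1.5 times the count reported. Many of these could not have moved. Narrower windows, a stricter q, lists of equal size and centre-only calls can only remove peaks, so a count of 0 stays at 0 there. Wider windows and whole genes cannot raise a count of 4, and the H3K4me3 list is unchanged at equal size. H3K27me3 stayed at 0 of 4 under all 7, where 18.2% to 43.9% of all genes had it. Only the wider windows and whole genes could have raised it. When only the centre of a peak could count, H3K4me3 lay at 1 of 4 genes, TUBA1A, against 53.9% of all genes. The peaks at the other members are centred over 1 kb inside the gene. With the 11079 strongest peaks of each list, SUZ12 lay at 1 of 4, BFSP2, and AEBP2 at 0 of 4. The shares of all genes fell as well, to 21.8% for SUZ12 and 2.99% for AEBP2. With windows of 2.5 kb, EZH2 lay at 1 of 4 (64.7% of all genes) and AEBP2 at 2 of 4 (50.3%). With whole genes and 1 kb, AEBP2 lay at 2 of 4 (57.8%). With whole genes and 10 kb, EZH2 lay at 2 of 4 (77.5%), JARID2 at 1 of 4 (80.5%) and AEBP2 at 3 of 4 (76.2%). Of 56 highest folds that could be recomputed, 52 were identical, and the other 4 took a peak beyond the end windows. A peak keeps its deposited fold under every setting, and cases that lost their peak are not among the 56. The 52 are therefore no measure of stability. By ranks within lists, 2 of the 3 most similar genes were shared for BFSP1, 1 for BFSP2, 3 for VIM and 1 for TUBA1A. The window at the start site alone was not run, because the gene table used here has no strand. No paired analysis was possible because 1 list per antibody was used and no values per library.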
